A study of Mus musculus with 20 samples.

Results

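The 41 forkhead box (Fox) genes described here were taken by symbol from a fixed list, and all 41 were found among the 21887 protein-coding genes of the mouse gene table. Fox genes encode transcription factors that bind DNA through a winged-helix forkhead domain. FOXA proteins are known as pioneer factors that bind closed chromatin in endoderm, FOXC and FOXF act in mesoderm and its vessels, FOXD3 in neural crest, FOXI in placodes and in ion-transporting cells of the inner ear, and FOXO proteins are held out of the nucleus when insulin or growth factor signalling activates AKT. Many genes for developmental transcription factors have CpG-rich promoters where Polycomb complexes deposit H3K27me3, a modification of repressed chromatin. H3K27ac marks promoters and enhancers in use, and H3K4me3 marks promoters, which need not all be in use.

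CUT&Tag was used, an assay in which an antibody brings a transposase to a chromatin protein, and the nearby DNA is cut out and sequenced. The tissue was ganglia labelled CVG (in inner ear work, the cochleovestibular ganglion, source of auditory and vestibular neurons) taken on embryonic day E11.5 from mice of the strain C57BL/6J. No group carried a mutant allele or a treatment, and groups differed only in the antibody: ISL1, a LIM homeodomain factor (group ISL1_26, n = 1, and ISL1_70, n = 3, taken as 1 target), POU4F1, a POU homeodomain factor (n = 2), H3K4me3 (n = 2), H3K27me3 (n = 3) and H3K27ac (n = 3). The series title asks how the ISL1 and POU4F1 proteins act together in inner ear sensory neurons. What 26 and 70 stand for is not in the labels, and nothing says whether replicates were separate dissections, so their agreement, and the p-values over libraries, may reflect technical spread alone. The other 6 libraries, made with IgG, were not used here.

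The 14 peak lists held from 8855 peaks (H3K27ac replicate 1) to 168144 (H3K27ac replicate 3), the read depth behind them is unknown, and the most uneven mark was H3K27ac. A pair of histone libraries stood apart from their labels. The library labelled H3K4me3 replicate 1 had peaks up to 87.9 kb long, against 7.53 kb in H3K4me3 replicate 2 and 87.7 kb and 88.3 kb in H3K27me3 replicates 2 and 3. The library labelled H3K27me3 replicate 1 had no peak over 4.44 kb. Of 12 marker genes of sensory neurons, 11 had both H3K27me3 and an active mark at a gene end and the remaining 1 an active mark alone; the shares of all protein-coding genes are 10.9% and 39.6%. Markers of other cell types carried an active mark, alone or with H3K27me3, at 3 of 6 genes of glia and neural crest, 4 of 7 of otic epithelium, 3 of 7 of mesenchyme and 1 of 6 of endothelium and blood. In the same order, H3K27ac of at least 2 libraries was at 2, 3, 1 and 1 of them (47.5% of all genes). H3K27me3 was at 4, 6, 7 and 1 (20.5% of all genes). The other active marks were H3K4me3 calls, which need the library labelled H3K4me3 replicate 1. All libraries were made from bulk tissue, so a gene with both marks in the same cells cannot be told apart from one with different marks in different cells, and fewer cells with a mark cannot be told apart from less of it per cell.

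Each member was placed in 1 of 4 states from the regions within 1 kb of either gene end. A region counted where overlapping peaks came from at least 2 libraries of a target, which is called replicated below. Active genes had replicated H3K27ac or H3K4me3, Polycomb genes had replicated H3K27me3, and the others had both or none. There were 12 active members (29.3%, against 39.6% of all protein-coding genes), 12 Polycomb members (29.3% against 9.63%), 14 with both (34.1% against 10.9%) and 3 with none (7.32% against 39.9%). Replicated H3K27me3 was at the ends of 26 Fox genes, or 63.4%, against 20.5% of all genes. Replicated H3K27ac was at 21 of them, or 51.2% against 47.5%. Replicated H3K4me3 was at 13, or 31.7% against 7.47%, but with 2 libraries this call always needs replicate 1, whose peaks resemble those of H3K27me3; H3K4me3 replicate 2 alone was at 43.9% against 39.6%. The Fox share lay furthest above the background for H3K27me3 and furthest below it for genes with no mark, while the H3K27ac share was near the background.

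**Figure D1:**
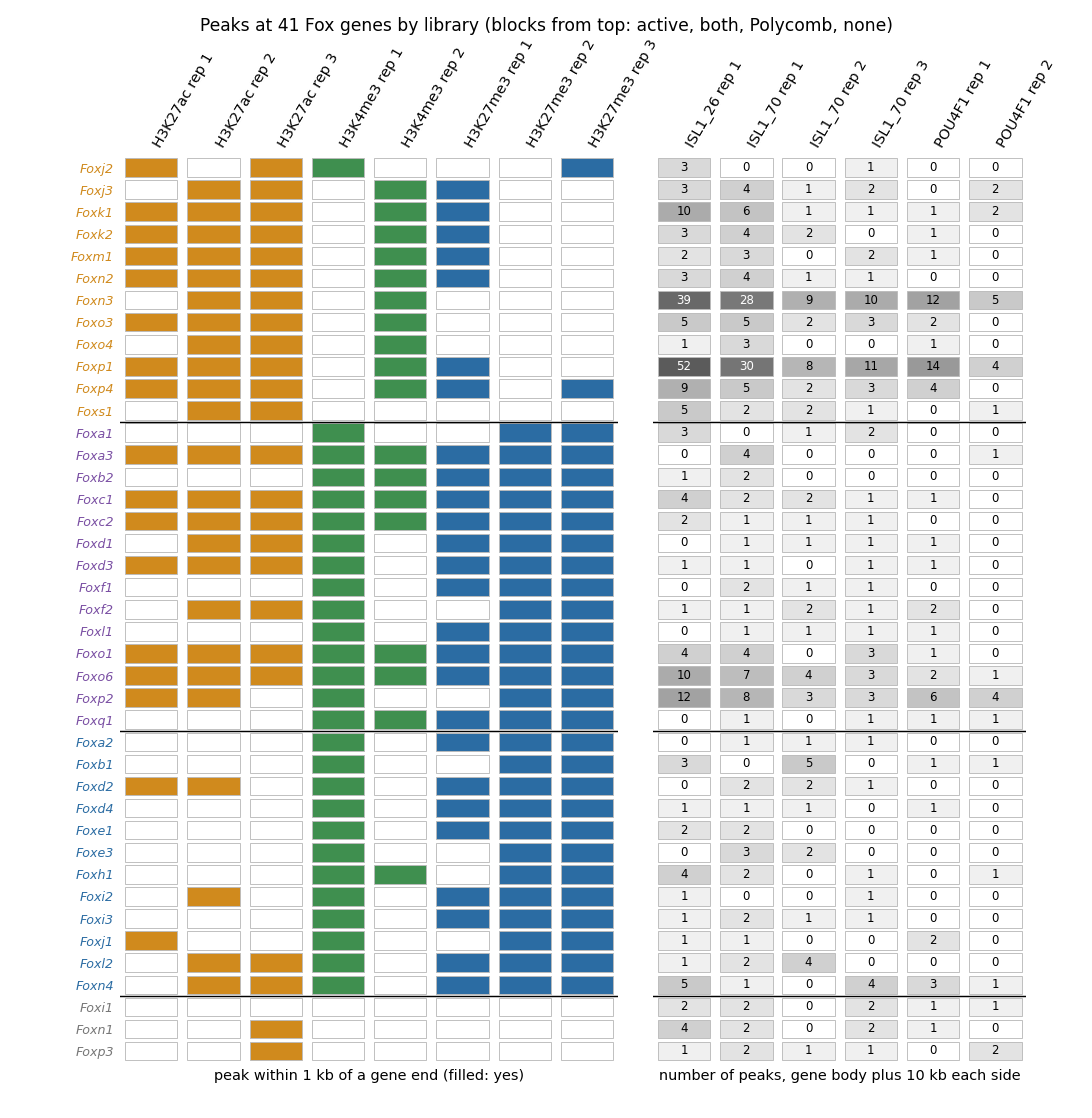
Left, each row is 1 of the 41 Fox genes and each column 1 histone library, with a filled cell where a peak lies within 1 kb of a gene end. Right, the number of ISL1 and POU4F1 peaks in the gene body plus 10 kb each side, by library. Lines separate the active (12), both (14), Polycomb (12) and no-mark (3) members, and H3K4me3 replicate 1 is filled wherever H3K27me3 replicate 2 is.

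H3K27me3 was unevenly spread over the subclasses, the letters after Fox that group genes by their forkhead sequence. The 4 states were mixed within most subclasses with several members: Foxn genes, for example, were active, Polycomb or without a mark. All 18 members of subclasses A, B, C, D, E, F, L and Q had replicated H3K27me3 at an end, and 6 of these 18 also had H3K27ac. Among the 23 members of subclasses H, I, J, K, M, N, O, P and S, H3K27me3 was at 8 and H3K27ac at 15. The 8 were Foxh1, Foxi2, Foxi3, Foxj1, Foxn4, Foxo1, Foxo6 and Foxp2. The letters were divided in this way after the H3K27me3 calls were seen, so the counts are a description with no test.

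Promoter sequences of a few members, picked after their values were seen, are shown as examples of each state. They come from the RefSeq promoter table (GRCm38.p6), which matched 26 of the 41 members. The 200 bases before an annotated start are printed 5′ to 3′ on the gene's strand, with each CpG in capitals. Foxd2 (Polycomb, chr4:114908899-114909098, minus strand) and Foxd3 (both, chr4:99656099-99656298, plus strand) lie in H3K27me3. Foxk2 (active, chr11:121259787-121259986, plus strand) and Foxo3 (active, chr10:42276696-42276895, minus strand) have H3K27ac and a replicated ISL1 region in the window. Foxi1 (no mark, chr11:34208090-34208289, minus strand) lies under the POU4F1 region described below, and Foxn1 (no mark, chr11:78386609-78386808, minus strand) has no peak there.
Foxd2: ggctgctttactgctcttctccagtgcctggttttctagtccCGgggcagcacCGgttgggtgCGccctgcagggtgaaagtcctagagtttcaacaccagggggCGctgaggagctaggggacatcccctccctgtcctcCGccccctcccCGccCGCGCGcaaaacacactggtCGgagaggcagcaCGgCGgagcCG
Foxd3: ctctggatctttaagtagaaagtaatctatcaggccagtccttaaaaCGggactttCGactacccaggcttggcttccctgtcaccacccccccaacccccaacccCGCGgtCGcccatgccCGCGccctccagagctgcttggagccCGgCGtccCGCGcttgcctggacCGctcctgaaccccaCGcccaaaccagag
Foxk2: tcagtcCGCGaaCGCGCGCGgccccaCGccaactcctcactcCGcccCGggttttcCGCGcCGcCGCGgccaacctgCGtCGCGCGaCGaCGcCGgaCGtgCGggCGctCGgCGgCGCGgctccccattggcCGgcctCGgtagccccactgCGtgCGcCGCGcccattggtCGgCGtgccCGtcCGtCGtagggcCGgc
Foxo3: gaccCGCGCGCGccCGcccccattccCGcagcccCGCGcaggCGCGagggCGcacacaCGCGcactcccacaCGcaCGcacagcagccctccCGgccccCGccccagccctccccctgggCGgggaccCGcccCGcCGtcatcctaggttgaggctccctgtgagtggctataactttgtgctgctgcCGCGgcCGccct
Foxi1: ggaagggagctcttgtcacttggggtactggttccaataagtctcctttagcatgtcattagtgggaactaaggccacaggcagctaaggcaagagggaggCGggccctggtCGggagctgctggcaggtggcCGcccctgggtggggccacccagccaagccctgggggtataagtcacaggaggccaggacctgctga
Foxn1: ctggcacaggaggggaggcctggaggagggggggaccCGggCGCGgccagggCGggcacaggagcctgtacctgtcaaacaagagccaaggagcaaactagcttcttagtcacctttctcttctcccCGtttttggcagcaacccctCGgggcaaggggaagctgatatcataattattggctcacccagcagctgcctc
These 200-base stretches hold 40 CpG in Foxk2, 24 in Foxo3, 13 each in Foxd2 and Foxd3, 6 in Foxn1 and 3 in Foxi1. The active promoters shown are the richest in CpG and those without a mark the poorest. This order holds for the examples picked: Foxk2 is the richest of the active members, and the ranges of the states overlapped, as given next.

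Over the full 300-base windows, from 250 bases before to 50 after the start, the median CpG count was 35 in 7 active members, 25.5 in 8 with both marks, 19 in 8 Polycomb members and 7 in the 3 without a mark. The same medians over all genes with an entry were 22, 19.5, 14.5 and 3. Fox promoters were therefore above the all-gene median in every state, and they fell in the same order of states as all genes. Within states the ranges were wide and overlapped. Active members ran from 6 CpG at Foxn3, whose listed window lies inside the gene, to 59 at Foxk2, and Polycomb members from 5 at Foxi2 to 31 at Foxi3. The observed to expected CpG ratio had medians of 0.834, 0.790, 0.678 and 0.272 in the same order.

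**Figure D2:**
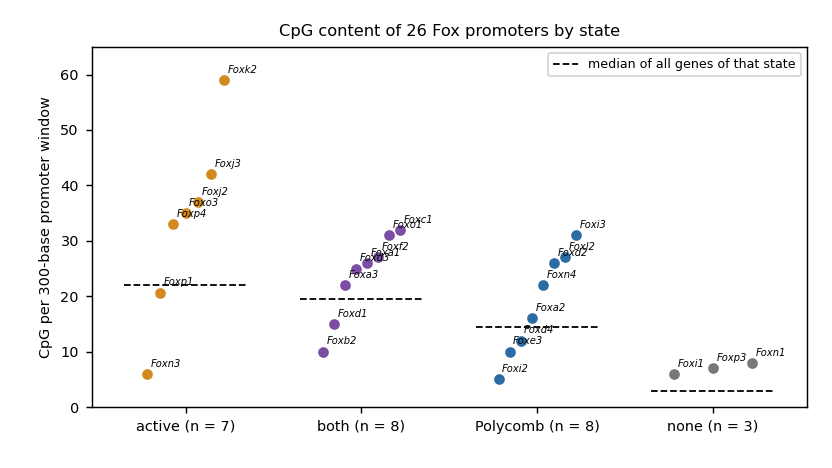
CpG dinucleotides per 300-base promoter window (vertical axis) of 26 Fox genes by state, 1 point per gene as the mean over its entries. Dashed lines give the median of all genes of that state (22, 19.5, 14.5 and 3), and the 3 genes without a mark lie between 6 and 8.

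Short motifs were searched on both strands of the 31 windows of Fox genes and of all 21263 windows. The forkhead motif TGTTTAC was found in 1 Fox window, of Foxa1, and in 3.01% of all windows. The homeodomain core TAATTA was in 2, of Foxn1 and Foxp1 (4.53% of all), and the LIM homeodomain motif CTAATG in 2, of Foxi1 and Foxp3 (6.44% of all). The POU octamer ATGCAAAT was in none (1.66% of all). TAATTA and CTAATG share letters, and a match is a description of the window, not a bound site. In the Foxi1 sequence above, the reverse letters CATTAG lie within the POU4F1 region, and no forkhead, homeodomain core or octamer match was in that window.

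At several Polycomb members H3K27me3 covered most of the gene and its flanks. Foxa2, which encodes a pioneer factor of floor plate and endoderm, had H3K27me3 peaks over 3.64, 22.2 and 22.7 kb of its window (gene body plus 10 kb each side) in replicates 1 to 3. Foxd2 had 2.77, 18.9 and 22.2 kb. Foxe1, a thyroid and palate factor, had 2.66, 19.1 and 20.6 kb. Replicate 1 was the lowest library at each of the 3, and the other libraries lay close together. Foxb1, expressed in the developing neural tube, had 1.83, 17.4 and 19.9 kb. Foxl2, an ovary and eyelid factor, had 3.67, 17.2 and 16.9 kb. Foxe3, a lens factor, had 0.316, 13.4 and 17.2 kb. These were the 6 Polycomb members with the longest replicated cover, which took 94.3% of the window at Foxa2, 98.0% at Foxd2, 92.6% at Foxe1, 82.1% at Foxb1, 79.3% at Foxl2 and 79.7% at Foxe3.

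The remaining Polycomb members were Foxd4, Foxh1 (a partner of SMAD proteins in nodal signalling), Foxi2, Foxi3 (a factor of otic and pharyngeal placodes), Foxj1 (the regulator of motile cilia) and Foxn4 (a retinal and spinal progenitor factor). Their cover was smaller, from 9.74% at Foxj1. The median over the 12 Polycomb members was 63.1% (14.4 kb), against 10.1% over all genes of that state. At least 50% of the window was covered at 6 of the 12 members (50%), against 8.30% of all Polycomb genes. The length of the genes moved with this share: Polycomb Fox genes had a median length of 3.24 kb, against 21.7 kb for all Polycomb genes, so most of a Fox window is its flanks. Its part in the share was not tested.

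H3K27me3 was found within 1 kb of an end in all 3 libraries at 8 of the 12 Polycomb members and in 2 libraries at the other 4. H3K27ac was absent from the ends of 7 of them in every library. It was in 1 library at Foxi2 and at Foxj1, and in 2 libraries at Foxd2, Foxl2 and Foxn4, where the peaks of the 2 libraries did not overlap. Counting those as active would give 11 Polycomb and 16 both-mark members when the same rule is applied to every mark.

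**Figure D3:**
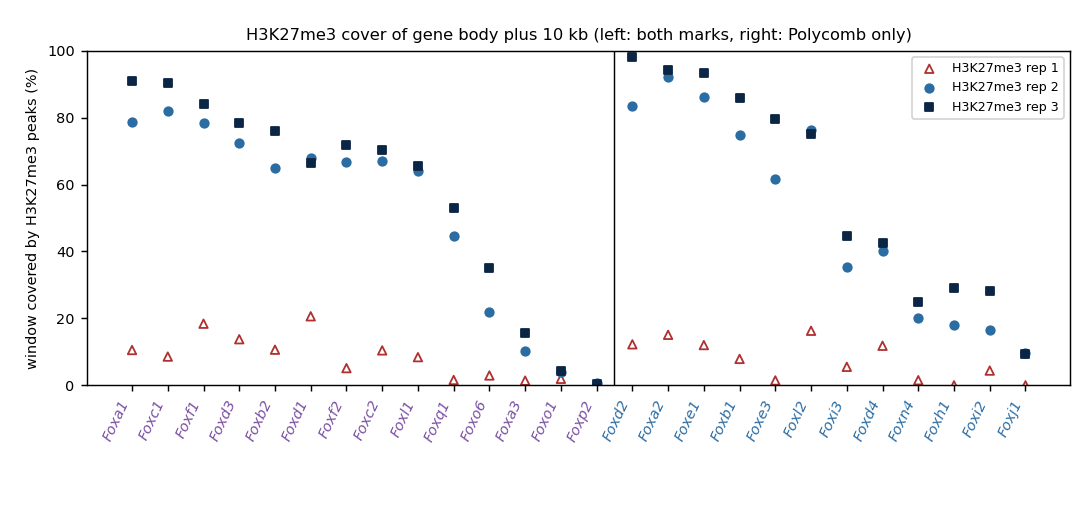
Percent of the gene body plus 10 kb each side covered by H3K27me3 peaks (vertical axis) in each of 3 libraries, for the 26 Fox genes with replicated H3K27me3 at an end. Both-mark members are on the left and Polycomb members on the right. Replicate 1 lies between 0 and 20.6% throughout, while replicates 2 and 3 reach 92.1% and 98.0%.

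The 14 members with both marks fell into those with H3K27ac and those without. Replicated H3K27ac was at the ends of 9: Foxa3 (a liver factor), Foxc1 and Foxc2 (mesenchyme and vessel factors), Foxd1 (kidney stroma and retina), Foxd3 (neural crest), Foxf2 (mesenchyme), Foxo1 and Foxo6 (effectors of insulin signalling) and Foxp2 (a neuronal repressor). H3K27ac was in 3 libraries at 6 of these and in 2 libraries at Foxd1, Foxf2 and Foxp2. The other 5, Foxa1, Foxb2, Foxf1, Foxl1 and Foxq1, had both marks only through H3K4me3, with no H3K27ac peak at an end in any library. Foxb2 and Foxq1 were the only members of the 5 with a peak of H3K4me3 replicate 2 within 1 kb of an end. For Foxa1, Foxf1 and Foxl1 the active mark rested on the library labelled H3K4me3 replicate 1.

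That library had a peak at the ends of 27 Fox genes. All 26 members with a peak of H3K27me3 replicate 2 were among them, as were 27 of the 28 of H3K27me3 replicate 3, but only 8 of the 18 with a peak of H3K4me3 replicate 2. Without the libraries labelled H3K4me3 replicate 1 and H3K27me3 replicate 1, there were 12 active, 14 Polycomb, 12 both-mark and 3 no-mark members, and 26 had H3K27me3. Foxa1, Foxf1 and Foxl1 then moved from both to Polycomb and Foxh1 from Polycomb to both. Without H3K4me3 replicate 2, which leaves replicate 1 alone for that mark, 0 members were Polycomb and 26 had both marks. With H3K27ac as the only active mark, 17 members were Polycomb and 9 had both.

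H3K27me3 cover separated the both-mark members further. At least 50% of the window was covered at 9 of the 14 (64.3%, against 8.68% of all both-mark genes), with 94.5% at Foxa1, 90.8% at Foxc1, 84.3% at Foxf1, 80.0% at Foxd3, 76.2% at Foxb2, 71.2% at Foxd1, 68.3% at Foxf2, 67.1% at Foxc2 and 63.9% at Foxl1. The median length was 3.88 kb for both-mark Fox genes and 25.4 kb for all both-mark genes, so flanks made up most of these windows too. Foxq1 had 49.5% and Foxo6 31.9%. Foxa3, with 13.9%, Foxo1, with 4.0%, and Foxp2, with 0.583%, had H3K27me3 confined to a small part of the window. Foxp2 spans 541 kb, the longest both-mark member, and its replicated cover was 3.27 kb. Some windows with such domains also held H3K27ac in small amounts, but those of Foxa1 and Foxb2 held none in any library. Foxf1 had 0, 0 and 0.334 kb in replicates 1 to 3. At Foxd3 H3K27ac covered 0.472, 1.76 and 3.45 kb in replicates 1 to 3, inside a window with 17.9 kb of replicated H3K27me3. At Foxc1 it covered 0.965, 3.95 and 3.77 kb, against 21.8 kb of replicated H3K27me3.

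The active members were Foxj2, Foxj3, Foxk1, Foxk2, Foxm1 (a cell cycle regulator), Foxn2, Foxn3, Foxo3, Foxo4, Foxp1, Foxp4 and Foxs1. H3K27ac was at their ends in 3 libraries at 7 and in 2 libraries at 5, and H3K4me3 replicate 2 had a peak at the ends of 10, against 1 of the 12 Polycomb members. H3K27me3 replicates 2 and 3 were at few of these ends, with 0 and 2 members. H3K27me3 replicate 1, in contrast, had peaks at 7 of them: Foxj3, Foxk1, Foxk2, Foxm1, Foxn2, Foxp1 and Foxp4. Apart from Foxp1, with 2.85, the best replicate 1 peak in each of these windows had a −log10 q-value of 1.09, near the list's lowest of 1.00. The counts by library are why a peak in a single library was not taken as a mark.

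The distance rule placed a few members near its limit. A replicated H3K27me3 region inside Foxo3 ended 1.14 kb short of the gene's end, just outside 1 kb. The nearest such regions lay 2.23 kb from an end at Foxs1, outside the gene, and 2.68 kb from an end at Foxp4, inside it. A replicated H3K4me3 region 0.961 kb from an end was just inside at Foxd3, where H3K27ac was also found. Neighbouring genes share these windows. Another protein-coding gene lay within 1 kb of an end of 8 members, Foxa1, Foxa3, Foxh1, Foxj1, Foxj3, Foxm1, Foxo4 and Foxp3, and marks there cannot be told apart from those of the neighbour.

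The 3 genes without a mark were Foxi1, Foxn1 and Foxp3. Foxi1 encodes a regulator of the inner ear's endolymph-regulating cells, Foxn1 the regulator of thymic epithelium and Foxp3 that of regulatory T cells. In replicates 1 to 3 of H3K27ac, Foxi1 had no peak in its window, Foxn1 had 0, 9 and 9, and Foxp3 had 0, 2 and 4. At Foxn1 and Foxp3 a peak of H3K27ac replicate 3 alone lay within 1 kb of an end. No library of H3K27me3 had a peak at an end of any of the 3, and H3K4me3 had no peak in their windows.

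Each library was also set against all genes. H3K27me3 peaks were at the ends of 26, 26 and 28 Fox genes (63.4%, 63.4% and 68.3%), against 27.2%, 19.7% and 26.7% of all genes. H3K27ac peaks were at 17, 24 and 24 (41.5%, 58.5% and 58.5%), against 23.6%, 55.4% and 58.8%. H3K4me3 peaks were at 27 (65.9%, against 21.3%) in the library that resembles H3K27me3 and at 18 (43.9%, against 39.6%) in replicate 2. The Fox share minus the all-gene share was 40.5 ± 3.84 percentage points for H3K27me3 (SD, n = 3, 36.2 to 43.7) and 6.90 ± 9.67 for H3K27ac (SD, n = 3, −0.311 to 17.9). The 2 sets of libraries did not overlap. The difference was −33.6 percentage points, with p = 0.1 in a two-sided exact permutation test over 20 arrangements, the smallest p that 3 against 3 libraries allow. With each library left out in turn it ran from −39.1 to −30.0.

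**Figure D4:**
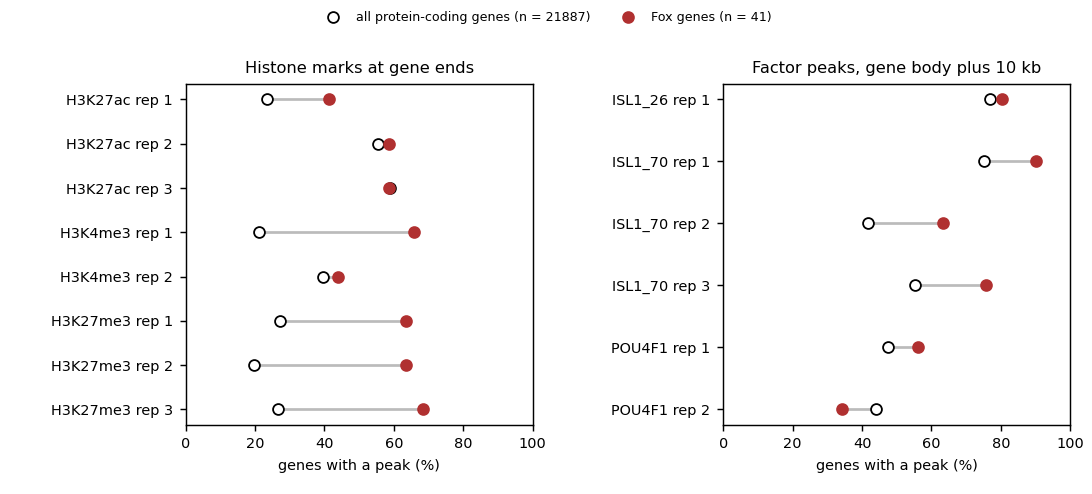
Percent of genes with a peak in each library (horizontal axis), for 41 Fox genes (filled) and 21887 protein-coding genes (open). Left, histone marks within 1 kb of a gene end. Right, factor peaks in the gene body plus 10 kb. The widest gaps are in the H3K27me3 libraries and H3K4me3 replicate 1, and the POU4F1 libraries lie on either side of the background.

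Fox genes that neighbour each other shared H3K27me3 domains in part. On chromosome 4, Foxd2 and Foxe3 lie 15.5 kb apart, and their windows shared 2 replicated H3K27me3 regions, chr4:114895481-114917828 (22.3 kb) and another of 13.8 kb. On chromosome 8, Foxc2 and Foxl1 lie 8.79 kb apart and shared 1 region of 15.5 kb, chr8:121115988-121131448. Foxf1 lies 28.0 kb from Foxc2 and shared none with it. On chromosome 13, Foxq1, Foxf2 and Foxc1 lie 64.8 kb and 175 kb apart and shared none. All 8 members of these clusters had H3K27me3 at an end, and they are not independent examples where they share a region.

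Replicated ISL1 regions lay in the windows of 23 Fox genes (56.1%, against 38% of all genes) and at the ends of 8 (19.5%, against 15.3%). Replicated POU4F1 regions lay in the windows of 2 (4.88%, against 1.92%), Foxi1 and Foxn3, and at the end of 1, Foxi1 (against 0.503% of all genes). By library, the ISL1_26 list had a peak in 33 windows (80.5%, against 76.9%) and the ISL1_70 lists in 37, 26 and 31 (90.2%, 63.4% and 75.6%, against 75%, 41.7% and 55.4%). POU4F1 had a peak in 23 and 14 (56.1% and 34.1%, against 47.4% and 44%). The ISL1 excess was 15.2 ± 8.24 percentage points (SD, n = 4, 3.56 to 21.8) and the POU4F1 excess −0.615 ± 13.1 (SD, n = 2, −9.89 and 8.66). They overlapped, and the difference of 15.8 gave p = 0.2 in a two-sided exact permutation test over 15 arrangements, of which 0.0667 is the smallest p possible. The count of 23 depended on the longest ISL1 lists, since it was 9 without ISL1_26 replicate 1 and 12 without ISL1_70 replicate 1.

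ISL1 regions were most often found at active members. They lay in the windows of 9 of 12 active members, 7 of 14 with both marks, 5 of 12 Polycomb members and 2 of the 3 without a mark. Among all genes the shares were 49.4%, 60.9%, 42.2% and 19.5% of the same states. Active Fox genes are also the longest, with a median of 53.7 kb against 3.88 kb for both-mark members. Per 100 kb of window there were 1.99 ISL1 regions at active members, 2.03 at Polycomb members, 1.84 at those without a mark and 1.24 at those with both, so that the order by density was not the order by count. All genes of these states had 1.41, 0.866, 0.619 and 1.54 per 100 kb.

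The 52 distinct ISL1 regions at Fox genes were mostly called in the fewest libraries allowed. Of these, 45 were called in 2 libraries, 3 in 3 and 4 in all 4, or 86.5%, 5.77% and 7.69%, against 74.7%, 17.7% and 7.58% of all 20413 replicated ISL1 regions. Replicated H3K27ac overlapped 19 (36.5%, against 47.5%) and replicated H3K27me3 10 (19.2%, against 6.94%). A peak of POU4F1 replicate 1 overlapped 8 (15.4%, against 14.4%), and one of replicate 2 overlapped 1 (1.92%, against 3.48%). At active members 16 of 33 ISL1 regions overlapped replicated H3K27ac and 1 replicated H3K27me3. At Polycomb members 0 of 6 overlapped replicated H3K27ac, although the one at Foxd2 overlapped H3K27ac peaks of 2 libraries that did not meet each other, and 5 overlapped replicated H3K27me3. The states were set from the same histone regions, so these counts describe the regions and do not support the division.

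The FOXO genes all had ISL1 regions (38% of all genes did), and Foxo6 held the densest set. FOXO proteins control metabolism, stress resistance and survival downstream of AKT, and FOXO6 is the brain-enriched member. The Foxo6 window held 10 peaks of ISL1_26 replicate 1, 7, 4 and 3 of ISL1_70 replicates 1 to 3, and 2 and 1 of POU4F1 replicates 1 and 2. Its 5 replicated ISL1 regions came to 12.4 per 100 kb. Among them, 2 had peaks of all 4 ISL1 libraries. One was inside the gene at chr4:120277038-120277985. The other, chr4:120287767-120289348, lay 0.506 kb outside it, with peaks of POU4F1 replicate 1 and of H3K27ac replicates 2 and 3. Measured from the lower-numbered gene end, the 4 ISL1 peaks there shared 20.97 to 21.73 kb. Peaks of H3K27ac replicate 1 and of H3K27me3 replicates 1 and 3 ended at 20.71, 20.93 and 20.70 kb. They overlapped the region but stopped short of that shared stretch.

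**Figure D5:**
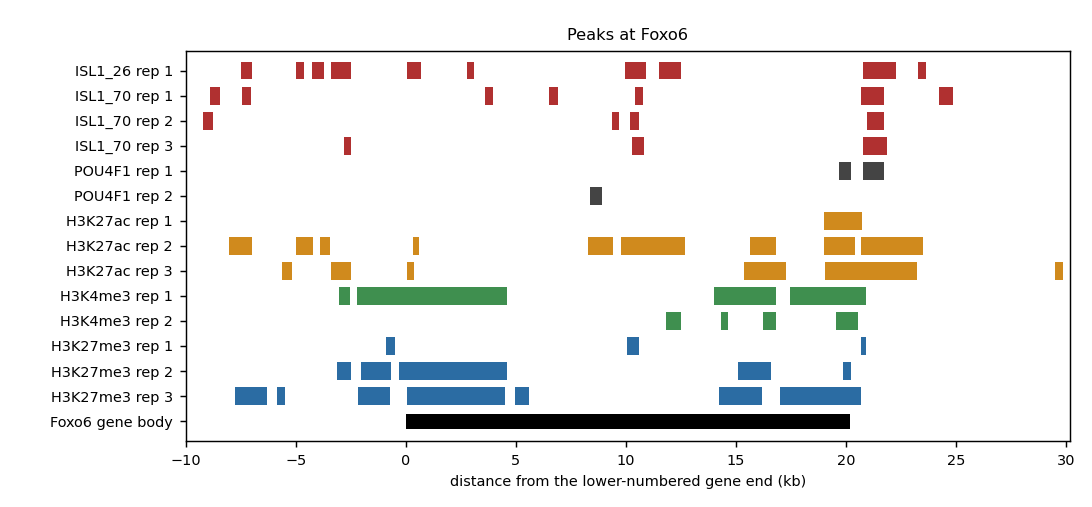
Peaks of the 14 libraries over Foxo6, with distance from the lower-numbered gene end in kb (horizontal axis) and 1 row per library; the black bar is the gene body. At the right end, 0.506 kb outside the gene, all 4 ISL1 libraries, POU4F1 replicate 1 and the 3 H3K27ac libraries have a peak. Peaks of H3K27me3 replicates 1 and 3 and of H3K4me3 replicate 1 overlap this region too. These peaks and that of H3K27ac replicate 1 end before the stretch shared by the ISL1 peaks.

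The other FOXO genes had 1 replicated ISL1 region each, all called in 2 libraries. Per 100 kb of window this was 0.871 at Foxo3, 0.983 at Foxo1 and 3.76 at Foxo4, against 1.11 over all genes. At Foxo3, chr10:42276124-42276815 overlapped the annotated start shown above and carried H3K27ac in 3 libraries. At Foxo1, chr3:52270040-52270587 lay in the gene and inside H3K27me3 of all 3 libraries. At Foxo4, chrX:101260709-101261743 lay over a gene end with H3K27ac in 2 libraries and a peak of POU4F1 replicate 1.

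Foxn3, a checkpoint-related repressor, was the only member with replicated regions of both ISL1 and POU4F1. Its window held 39, 28, 9 and 10 ISL1 peaks in ISL1_26 replicate 1 and ISL1_70 replicates 1 to 3, and 12 and 5 POU4F1 peaks. The gene is long, and its 11 replicated ISL1 regions came to 2.79 per 100 kb. A pair of them had peaks of all 4 libraries, chr12:99266635-99268356, which also held a peak of POU4F1 replicate 1, and chr12:99527760-99529967; H3K27ac of 2 libraries overlapped each. In ISL1_70 replicate 3 its best peak ranked in the top 0.521% of the list by q-value. The POU4F1 region of Foxn3, chr12:99508572-99509514, lay in the gene with H3K27ac of 2 libraries and overlapped no replicated ISL1 region. Foxn2, the related gene, had 1 ISL1 region of 3 libraries at chr17:88440576-88442040, over a gene end with H3K27ac in 3 libraries.

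The FOXP genes, repressors of neuronal, lung and immune development, all had ISL1 regions (38% of all genes did). Foxp1 had 52, 30, 8 and 11 ISL1 peaks and 14 and 4 POU4F1 peaks in the same order of libraries. Its 11 ISL1 regions, 1.78 per 100 kb, were all inside the gene and none had peaks of more than 2 libraries, and 7 overlapped replicated H3K27ac and 2 a peak of POU4F1 replicate 1. Foxp2, which spans 541 kb, had 12, 8, 3 and 3 ISL1 peaks and 6 and 4 POU4F1 peaks. It had 2 replicated ISL1 regions, or 0.357 per 100 kb against 1.11 over all genes. One of these, chr6:15035512-15036758, held the best POU4F1 replicate 1 peak of the gene, chr6:15035874-15036481, which had a fold enrichment of 167 in the authors' list and ranked in its top 0.228%. No POU4F1 replicate 2 peak was there. Foxp4 had 2 regions of 2 libraries inside the gene, of which chr17:47907637-47908231 overlapped replicated H3K27ac. At Foxp3, chrX:7588635-7589540 came from ISL1_70 replicates 2 and 3 and overlapped no histone peak.

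The FOXK genes, which encode repressors tied to metabolism, had ISL1 regions of 2 libraries only. At Foxk2, chr11:121259208-121259933 lay 0.054 kb upstream of the gene, over the promoter shown above, with H3K27ac of 2 libraries and a peak of POU4F1 replicate 1. In ISL1_70 replicate 2 its peak there had a fold enrichment of 84.5 in the authors' list and ranked in the top 3.79%. Foxk1 had 2 regions inside the gene, each with H3K27ac of 1 library. Foxs1, a gene known from sensory neurons and pericytes, had 2 regions outside the gene, of which chr2:152943101-152943758, at 9.89 kb, lay in replicated H3K27me3.

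Both-mark and Polycomb members outside the FOXO and FOXP genes had 1 or 2 ISL1 regions each where they had any. At Foxc1, chr13:31816057-31816650 lay 5.42 kb downstream in H3K27ac of 2 and H3K27me3 of 2 libraries. Foxc2 and Foxl1 shared the region chr8:121116838-121118075, which overlaps Foxc2 and lies 9.61 kb from Foxl1. At Foxd2, chr4:114907777-114908746 lay in the gene inside H3K27me3 of 3 libraries and overlapped H3K27ac peaks of replicates 1 and 2. Its peaks in ISL1_70 replicates 1 and 2 had folds of 5.02 and 5.63 in the authors' lists, and most peaks of each list ranked above them. Foxl2 had 2 regions in H3K27me3, of which chr9:98965324-98966349 was called in 3 libraries, 7.20 kb downstream. Foxd4, Foxe3, Foxh1 and Foxb2 had 1 region each, called in 2 libraries. Those of Foxd4 and Foxh1 lay in H3K27me3 of 2 libraries, and those of Foxe3 and Foxb2 overlapped no H3K27me3 peak. Foxn1, which has no mark, also had 1 region of 2 libraries, inside the gene at chr11:78359699-78360271 with a peak of POU4F1 replicate 1.

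Foxi1 was the only member with a replicated POU4F1 region at its end. The region chr11:34208121-34208745 lay 0.032 kb upstream of the gene, over the promoter shown above, and no histone or ISL1 peak overlapped it. Its peaks were near the weak end of both lists: the fold enrichments in the authors' lists were 7.47 and 3.21, and 91.6% and 96.7% of the peaks of each list ranked above them. The count of 2 members with POU4F1 fell to 1 with a 50% overlap and with a −log10 q of at least 2, which the Foxi1 peak of replicate 2, at 1.70, does not reach.

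No replicated factor region was found at 17 of the 41 members: Foxa1, Foxa2, Foxa3, Foxb1, Foxd1, Foxd3, Foxe1, Foxf1, Foxf2, Foxi2, Foxi3, Foxj1, Foxj2, Foxj3, Foxm1, Foxn4 and Foxq1. The share of all genes without either factor was not computed. For ISL1, a replicated region was more frequent in Fox windows (56.1%) than in those of all genes (38%). Each of the 41 had at least 1 ISL1 peak of some library, as did 92.8% of all genes, and 15 had a peak of all 4 ISL1 libraries, against 25% of all genes. Peaks of both POU4F1 libraries lay in 9 windows and of neither in 13. The same shares over all genes were not computed, so these 2 counts describe the members alone. By single library, POU4F1 replicate 1 was above the background (56.1% against 47.4%) and replicate 2 below it (34.1% against 44%).

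Genes whose products work with Fox proteins were looked at as a listed group of 21: corepressors of the TLE and CTBP families, AKT pathway regulators of FOXO, SMAD partners of FOXH1, and Bap1, a FOXK partner. Of these, 16 were active (39.6% of all genes are), 2 had both marks (10.9% of all), 2 were Polycomb (9.63% of all) and 1 had none (39.9% of all). Replicated ISL1 regions lay in the windows of 15 (38% of all genes and 49.4% of all active genes) and POU4F1 regions in those of 3 (1.92% of all). The leading examples by ISL1 peaks and regions were all corepressor genes. Ctbp2 was active with 12 ISL1 regions, Tle1 active with 7, Tle3 active with 7 and a POU4F1 region, and Tle2 Polycomb with 4. These counts were not set against the length of the genes.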

How the data were processed

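CUT&Tag libraries of E11.5 ganglia were used through the authors' 14 peak lists, 1 per library without pooling. Per the file headers (peak names), MACS2 called the peaks using a control sample. FastQC, Bowtie2, SEACR and mm10 are named per the submitters' processing notes, without roles or versions. The deposited columns hold each peak's fold enrichment, a ratio, and its significance as −log10 p-value and −log10 q-value, the latter at least 1 in every list. Here they only ranked peaks (by q-value) or filtered them inside 1 list. A longer list can raise a count but did not always do so. H3K4me3 replicate 2, with 22425 peaks, was at 18 Fox gene ends, and replicate 1, with 15785, at 27.

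Peaks of a target overlapping by at least 1 bp were merged, and regions with peaks of at least 2 libraries were kept. Genes came from RefSeq (GRCm38.p6). It gives no strand for some genes, so both gene ends were used (1 kb), and a start alone only for the 26 members in the promoter table. Python 3.11.15, pandas 2.3.3 and NumPy 2.4.6 were used. The code was tested on simulated data. The planned tests were 2 exact permutation tests over libraries, with 1 value per library. Alternatives were a single library, 50% overlap, −log10 q of at least 2, windows of 2 kb or of 0, 10 and 50 kb, H3K27ac alone, and leaving out libraries.

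All 41 members are accounted for by state. Described in full are up to 15 members with a factor region (by number of factor libraries, then best-peak rank), the 6 Polycomb members with longest cover, both-mark and no-mark members; further members were named, and promoters shown, after their values were seen. The members and lists were chosen with earlier results of these data known.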

Additional observations from a re-analysis of the deposited data

Results flagged for a closer look

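Values over the 4 ISL1 libraries were looked at, among them the number of ISL1 peaks in the gene body plus 10 kb of each member. Of the 43 groups of values examined, 11 stood out, and all 11 were such peak counts. In each, 1 library lay apart from the other 3, which had equal counts. How often chance gives such a gap was not tested. The lists differ in length, and with counts this small a single peak often makes the gap. The outlying library had no peak, or 0, at Foxi1 and Foxd3 (ISL1_70 replicate 2), at Foxd4 (ISL1_70 replicate 3), and at Foxd1, Foxa2 and Foxl1 (ISL1_26 replicate 1). It had 2 peaks where the others had 1 at Foxf2 (ISL1_70 replicate 2), at Foxi3 and Foxp3 (ISL1_70 replicate 1), and at Foxc2 (ISL1_26 replicate 1). At Foxa3, ISL1_70 replicate 1 had 4 peaks and the other libraries had 0.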

How the results depend on the processing

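Of 128 values under alternatives, including 66 with a library left out, 104 were classed as unchanged and 24 as moved. Counts were classed by how near they stayed to the reported one and could not reverse. Differences between libraries were classed by sign alone, whatever their size, and none changed sign. With a peak of any 1 library as a mark there were 6 active, 0 Polycomb, 34 both-mark and 1 no-mark members, and ISL1 was at 41 and POU4F1 at 28. With H3K27ac as the only active mark, 9 had both marks. POU4F1 was at 1 member with 50% overlap, with −log10 q of at least 2 and over the gene body alone; ISL1 was at 15 over the gene body alone and at 2 where all 4 libraries had to share a region. Leaving out each library in turn gave 7 to 13 active, 0 to 14 Polycomb, 12 to 26 both-mark and 3 to 8 no-mark members, 23 to 26 with H3K27me3, 12 to 21 with H3K27ac, 9 to 20 with ISL1 and 14 to 23 with POU4F1, where a single list was left. Without H3K27ac replicate 3 there were 7 active and 8 no-mark members and H3K27ac was at 12; without H3K27ac replicate 2, 6 had no mark, and without H3K27me3 replicate 2 or 3, 5. With a library left out, the difference between H3K27ac and H3K27me3 libraries stayed between −39.1 and −30.0 percentage points. It was −29.0 with −log10 q of at least 2. The difference between ISL1 and POU4F1 libraries ran from 6.53 to 25.1 with a library left out. Over the gene body alone it fell to 3.95, and with 50 kb each side to 7.03. Fewer lists make fewer replicated regions by construction; the cause of other shifts was not tested. No paired analysis was possible because the counts come from merged lists with no test, and the libraries compared carry different antibodies whose replicate numbers are not stated to mark shared embryos. Read depth is unknown, which limits any reading of absent peaks.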
